A study of Mus musculus with 8 samples.

Results

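Fibrosis of the liver is the build-up of collagen-rich matrix, laid down mainly by hepatic stellate cells. In the healthy organ these cells lie between the sinusoidal lining and the hepatocytes and store vitamin A as retinyl esters. After injury, signals such as TGF-beta and PDGF activate them, and they lose the vitamin A, take on contractile proteins and secrete fibrillar collagens together with crosslinking enzymes and protease inhibitors. The genes described here are 41 genes of this programme, chosen by symbol from the 22013 genes of the deposited table of mouse liver RNA, and all 41 were found in it. By role, 30 were taken as matrix and activation genes and 8 as markers of quiescent stellate cells. How far the 8 are particular to resting cells was not tested. Dcn, Pdgfra and Pdgfrb were placed in neither set because resting and activated mesenchymal cells both express them.

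RNA with poly(A) tails from liver was sequenced in 8 libraries, 4 titled as control and 4 as resmetirom (Rem), which activates thyroid hormone receptor beta in preference to the alpha form. The series describes steatohepatitis induced in mice by 12 weeks on an FPC diet (fructose, palmitate, cholesterol), with resmetirom at 5 mg/kg/day injected intraperitoneally for the last 8 weeks, after 4 weeks of diet alone. The vehicle held 0.5% CMC-Na (sodium carboxymethyl cellulose) and 0.4% Tween-80. For the control libraries the labels give the tissue only, so whether they had the same diet and the vehicle is not stated, and diet, vehicle and drug cannot be told apart. Strain, sex, age and whether each library is a separate animal are not given in the sources used here, so the p-values rest on a spread between libraries that may be technical. Whole-number gene counts summed to 16787561 to 19887539 per library. In bulk tissue, fewer cells of a type and less RNA per cell cannot be told apart.

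Promoters are printed for the member called lower (Col3a1), for the member with the lowest fold change (Mmp13) and for the vitamin A storage gene that defines the quiescent cell (Lrat). Each is the 200 bases before the RefSeq start (build GRCm38.p6), 5′ to 3′ on the gene's own strand, and none overlapped an exon of GENCODE M21. Capitals mark matches, on either strand, to the 4 motifs named next, and matches to the other 3 motifs of the search are left in lower case. The motif TATAAA is the TATA box of core promoters. The motif CCAAT is the box bound by the factor NF-Y. The motif TGANTCA is the site of AP-1, the Fos and Jun factors of activated cells. The motif GGAATG is the site of the TEAD factors.
Col3a1 (chr1:45311338-45311537, plus strand): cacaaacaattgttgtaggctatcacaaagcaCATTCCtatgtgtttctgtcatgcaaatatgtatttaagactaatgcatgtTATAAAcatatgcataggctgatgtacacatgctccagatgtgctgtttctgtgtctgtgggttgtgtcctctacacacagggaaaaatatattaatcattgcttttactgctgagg
Mmp13 (chr9:7272314-7272513, plus strand): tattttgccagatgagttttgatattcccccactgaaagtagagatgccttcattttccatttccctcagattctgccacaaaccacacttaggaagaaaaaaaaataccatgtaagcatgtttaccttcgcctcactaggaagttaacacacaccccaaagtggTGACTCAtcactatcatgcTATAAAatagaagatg
Lrat (chr3:82903975-82904174, minus strand): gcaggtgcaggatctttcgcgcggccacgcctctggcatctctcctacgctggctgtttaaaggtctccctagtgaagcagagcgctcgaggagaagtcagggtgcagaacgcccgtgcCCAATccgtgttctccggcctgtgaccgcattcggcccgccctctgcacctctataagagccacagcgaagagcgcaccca
The TATA box match of Col3a1 began 117 bases and its TEAD match 168 bases before the start. In Mmp13 the AP-1 match began 35 bases and the TATA box match 16 bases before the start, and in Lrat the CCAAT match began 81 bases before it.

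Of the 41 members, 26 had a promoter in the RefSeq table, and the 250 bases before the start were searched in the same way in these and in all 32851 windows of the table. A TATA box was found for 5 of 26 members (Col3a1, Tgfb2, Postn, Ecm1 and Mmp13) and in 12.4% of all windows. An AP-1 site was found for 3 members (Ecm1, Mmp13 and Col6a1), against 6.75%, and a TEAD site for 5, against 12.6%. A CCAAT box was found for 9 members, against 33.8%. GTCTG, a half-site bound by the SMAD proteins that act below TGF-beta, was found for 12, against 42.2%, and GGGCGG, the GC box, for 16, against 32.7%. The CArG box of smooth muscle genes was found for 0, against 1.47%. A member counted if any of its windows matched, whereas the shares are of single windows. Members with several starts thus had more chances of a match, and the counts and shares are not in the same unit. Matches are letters in a window and are given as a description.

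Resmetirom replicate 1 stood apart from the other libraries of its group. It had the highest level of the 4 resmetirom libraries for 32 of 41 members (78.0%), against 28.0% of all genes tested. Its TMM factor, edgeR's correction for library composition, was 1.06, whereas the control libraries had 1.08 to 1.16 and resmetirom replicates 2 to 4 had 0.804 to 0.879. Markers of portal fibroblasts and mesothelium summed to 80.7 CPM in it, 27.7 to 41.2 CPM in resmetirom replicates 2 to 4 and 23.98 to 53.4 CPM in the control libraries. Cholangiocyte markers summed to 71.9 CPM in it, 40.8 to 47.3 CPM in resmetirom replicates 2 to 4 and 28.3 to 53.3 CPM in the control libraries. Lymphocyte markers summed to 10.99 CPM in it, 2.397 to 7.21 CPM in resmetirom replicates 2 to 4 and 3.21 to 7.04 CPM in the control libraries. Kupffer cell markers summed to 1065 CPM in it, 401 to 922 CPM in resmetirom replicates 2 to 4 and 639.8 to 933 CPM in the control libraries. This library was above both ranges for these 4 of 10 marker lists, and the part of these cells in the results was not tested. Within the control group, replicates 3 and 4 were the highest pair for 24 members (58.5%), against 22.1% of all genes. Calls of members that change without resmetirom replicate 1 are given both ways, and fits without it lower most members by construction.

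**Figure D1:**
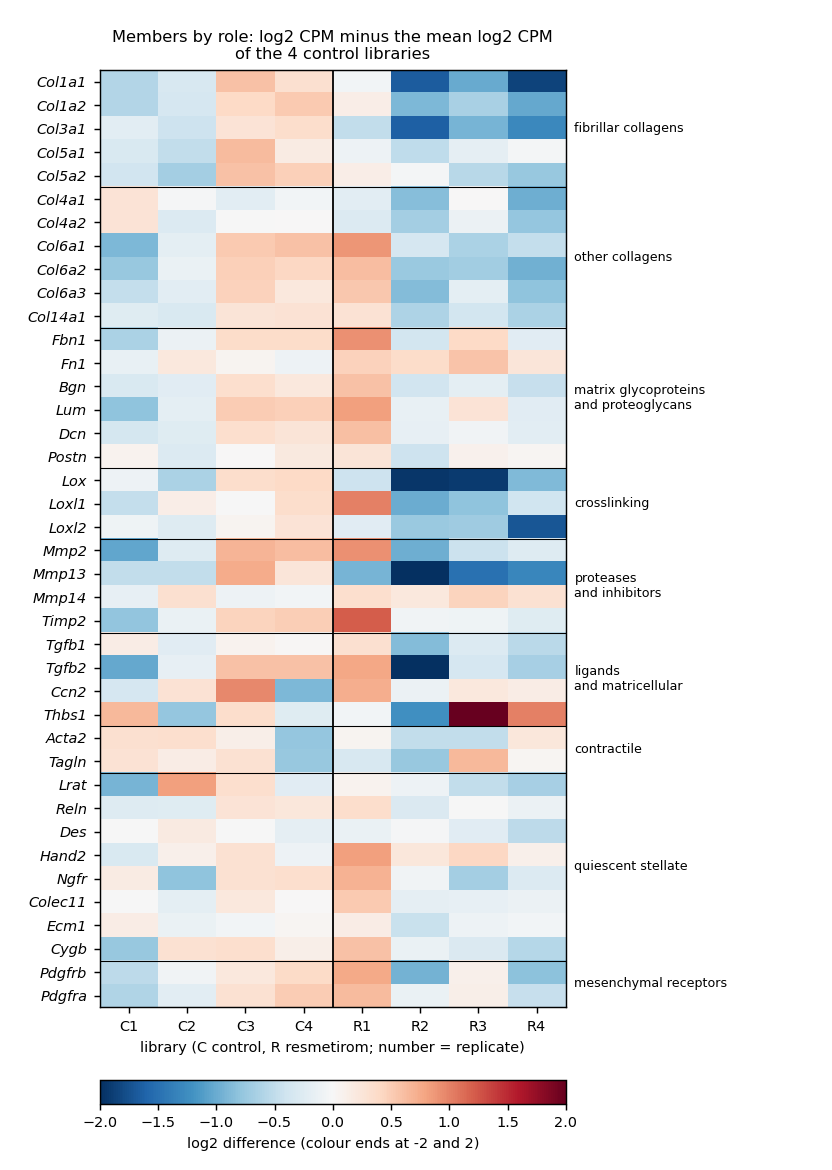
Each row is 1 of the 40 tested members and each column 1 library; colour is log2 CPM minus the mean of the 4 control libraries. In most rows resmetirom replicate 1 is the highest library of its group, in most rows, counted separately, control replicates 3 and 4 are the highest control pair, and Col3a1 and Mmp13 are below the control libraries in all 4 resmetirom libraries.

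The comparison asked whether fibrogenic matrix and activation genes differed between resmetirom and control, and whether the markers of resting stellate cells did. Col3a1, the chain of type III collagen, fell, and Fn1, fibronectin, rose. The fold change of Fn1 turned below 0 on the TPM scales. The median of all genes there was -0.41 (log2(TPM + 1)) and -0.50 (log2(TPM + 0.1)). No other of the 40 tested members reached an adjusted p under 0.05 (edgeR quasi-likelihood test, Benjamini-Hochberg over all 12207 genes tested), and 8 had an unadjusted p under 0.05. The single lower call stands beside 1.99% of all genes called lower, and the single higher call beside 2.6% called higher, so the count of members called was near the background. In direction, 28 of 40 members had a log2 fold change below 0 (median -0.10), against 50.7% of all genes (median -0.0043). All 11 collagens were below 0, with a median of -0.36, and of these only Col6a1 turned above 0 in any alternative, which happened when replicate 3 or 4 of either group was left out. Without resmetirom replicate 1 the members called were Col3a1 and Col1a1, both lower, beside 1.93% of all genes. The median of the members was then -0.38, with 35 of 40 below 0 against 51.3% of all genes. That library was the highest of its group for most members, so leaving it out lowers most of them by construction. With any other library left out, Col1a1 was not called. Scaling by library size alone moved the median of all genes to -0.31 and that of the members to -0.39, with 5 members called lower beside 16.1% of all genes. On the TPM scales, 11 members were called lower with either pseudocount, beside 38.0% (log2(TPM + 1)) and 37.6% (log2(TPM + 0.1)) of all genes. The authors' deposited table lists 13 members as lower and 0 as higher at its adjusted p under 0.05, beside 32.4% of all genes with counts that it lists as lower.

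**Figure D2:**
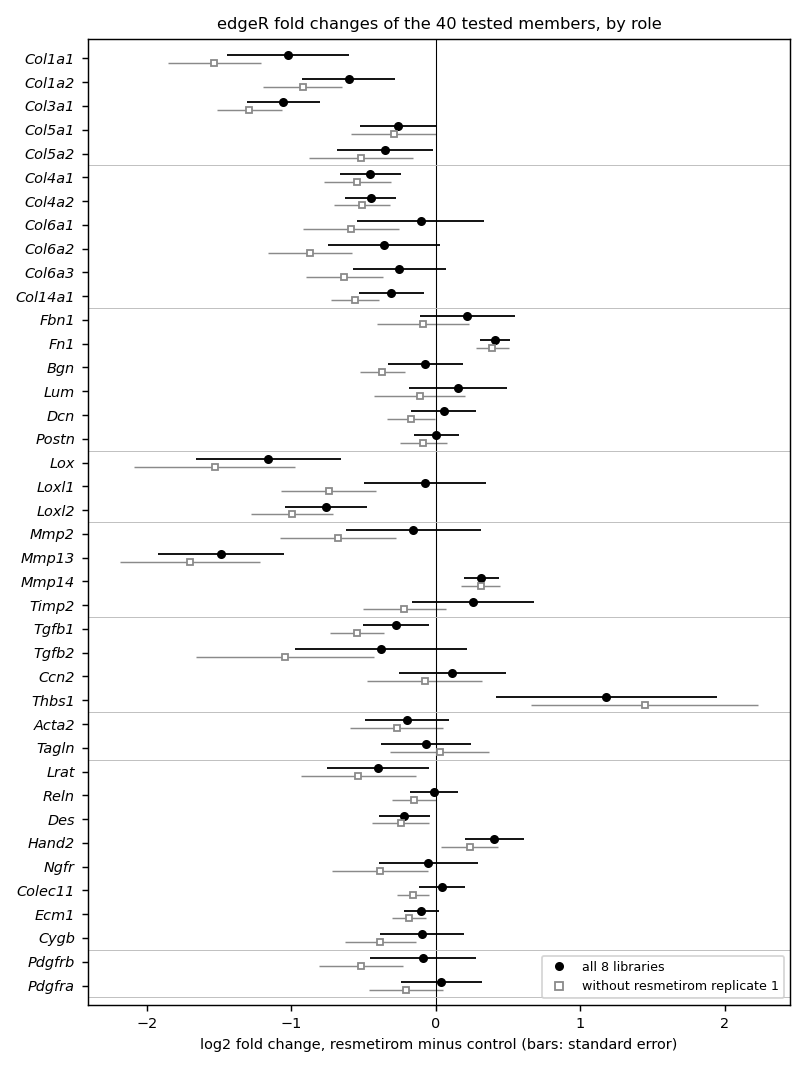
Log2 fold change of the 40 tested members (horizontal axis, resmetirom minus control; bars are standard errors), with all 8 libraries and without resmetirom replicate 1. All 11 collagens lie below 0 in both fits, and the 8 quiescent markers lie between -0.40 and 0.40 with all libraries.

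Fibrillar collagens form the tensile fibres of scar. Col3a1 (ENSMUSG00000026043, chromosome 1, 45311538 to 45349706; GENCODE M21, build GRCm38, that is mm10, as for all positions) was at 26.4, 22.8, 36.7 and 38.96 CPM in control replicates 1 to 4 and at 21.6, 9.87, 15.98 and 12.5 CPM in resmetirom replicates 1 to 4. Every resmetirom library lay below every control library, as in 5.5% of all genes tested. The means were 31.2 ± 7.83 and 14.98 ± 5.07 CPM (SD, n = 4 each; CPM is the count relative to the TMM-scaled library total), and the log2 fold change was -1.06 (SE 0.25, edgeR adjusted p = 0.0474). Its adjusted p was under 0.05 in 12 of 20 alternative analyses and ranged from 0.000667 to 0.144. Without resmetirom replicate 1 it was -1.29 (adjusted p = 0.0108), and leaving out any 1 of control replicates 1, 3 and 4 and resmetirom replicates 2, 3 and 4 brought the adjusted p above 0.05.

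Type I collagen, the main collagen of scar, is assembled from the chains of Col1a1 and Col1a2. Col1a1 (ENSMUSG00000001506, chromosome 11, 94936224 to 94953042) was at 7.68, 9.24, 17.2 and 14.3 CPM in the control and at 11.1, 3.64, 5.73 and 3.19 CPM in the resmetirom libraries. Col1a2 was at 11.8, 14.1, 23.4 and 25.4 CPM in the control and at 19.4, 9.48, 11.3 and 8.74 CPM in the resmetirom libraries. In both, resmetirom replicates 2 to 4 lay below all control libraries and replicate 1 lay inside the control range. The share of all genes with replicates 2 to 4 below all control libraries was not counted, here or for the genes below. The log2 fold change of Col1a1 was -1.02 (SE 0.42, edgeR adjusted p = 0.243) with all libraries and -1.53 (adjusted p = 0.0258) without replicate 1. That of Col1a2 was -0.60 (SE 0.32, edgeR adjusted p = 0.385) and -0.92 (adjusted p = 0.103). Col5a1 and Col5a2, chains of the type V collagen that starts fibrils, had -0.26 and -0.35 with overlapping groups (adjusted p = 0.687 and 0.665). Col3a1 and Col5a2 lie 24614 bases apart on chromosome 1, on opposite strands.

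**Figure D3:**
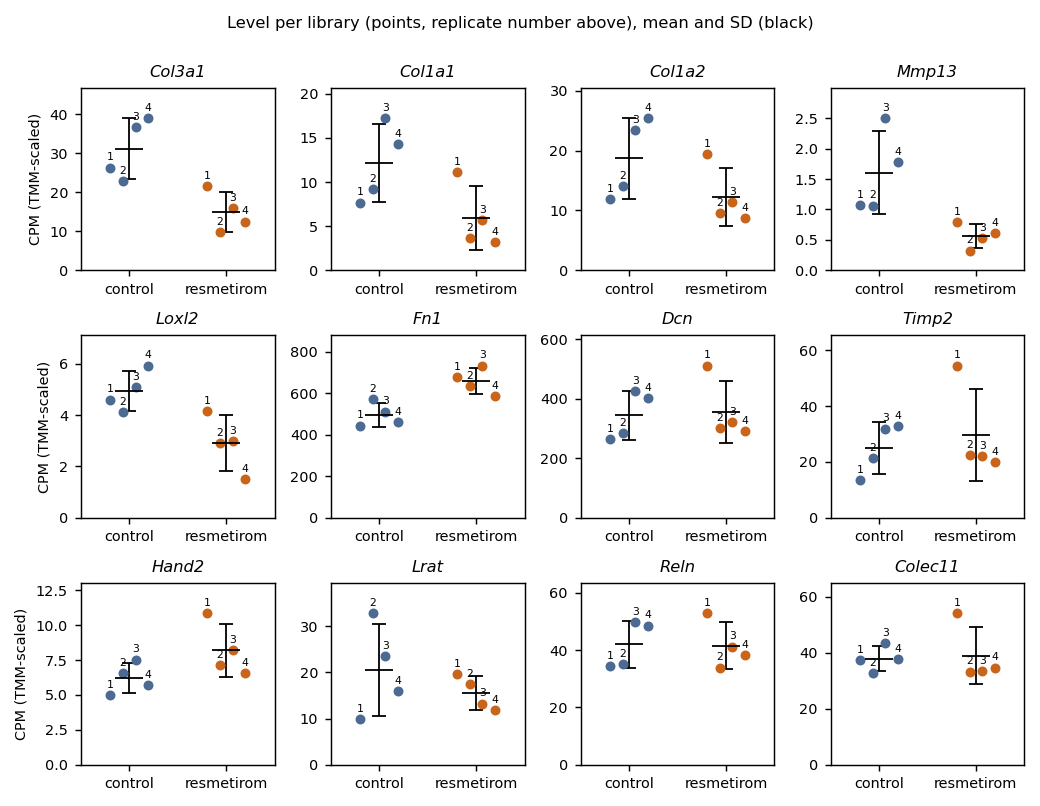
Levels of 12 members in each library (vertical axes, TMM-scaled CPM from 0; points carry replicate numbers), with mean and SD. Col3a1 and Mmp13 are lower and Fn1 is higher in all 4 resmetirom libraries (its difference turns below 0 on the TPM scales), whereas the groups overlap for Dcn, Timp2, Reln and Colec11, whose highest library is resmetirom replicate 1.

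The other collagens build basement membranes and pericellular networks. Col4a1 and Col4a2, the chains of the common type IV collagen of basement membranes, start head to head on chromosome 8, where their annotated exons overlap by 22 bases. Col4a1 was at 36.8, 30.1, 26.4 and 29.4 CPM in the control and at 26.4, 16.9, 30.8 and 15.5 CPM in the resmetirom libraries. Col4a2 was at 17.1, 11.7, 14.1 and 14.1 CPM in the control and at 11.7, 8.77, 12.98 and 8.27 CPM in the resmetirom libraries. Resmetirom replicates 2 and 4 were below all control libraries for both genes and replicate 3 was inside the control range, while replicate 1 was just below the control minimum for Col4a1 and just above it for Col4a2. The log2 fold changes were -0.45 (SE 0.21, edgeR adjusted p = 0.301) and -0.45 (SE 0.18, edgeR adjusted p = 0.198). With library sizes only they were -0.76 (adjusted p = 0.0356) and -0.76 (adjusted p = 0.0206), under a scaling that called 16.1% of all genes lower.

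Type VI collagen forms beaded filaments around cells. Col6a1 was at 6.38, 10.4, 17.04 and 17.9 CPM in the control and at 22.04, 9.48, 7.66 and 8.61 CPM in the resmetirom libraries. Resmetirom replicate 1 was the highest of all 8 libraries for Col6a1, Col6a2 and Col6a3. Their log2 fold changes were -0.11, -0.36 and -0.25 with it and -0.59, -0.87 and -0.63 without it, with adjusted p from 0.135 to 0.943. Col14a1, a fibril-associated collagen, had -0.31 (SE 0.23, edgeR adjusted p = 0.564) and, without replicate 1, -0.56 (adjusted p = 0.0906). Per length it had the highest mean of the collagens in the control libraries, at 20.2 ± 4.07 TPM, and Col3a1 at 14.5 ± 6.55 TPM did not differ from it beyond their spread (SD, n = 4 each).

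Of the 6 matrix glycoproteins and proteoglycans 1 rose and 0 fell, beside 2.6% and 1.99% of all genes tested. Fn1 (ENSMUSG00000026193, chromosome 1, 71585520 to 71653200) encodes fibronectin, which hepatocytes also secrete into plasma. It was at 443, 571, 511 and 459 CPM in the control and at 679, 635, 733 and 584 CPM in the resmetirom libraries. All resmetirom libraries lay above all control libraries, as in 6.32% of genes tested. The means were 496 ± 57.7 and 658 ± 63.3 CPM (SD, n = 4 each), and the log2 fold change was 0.41 (SE 0.11, edgeR adjusted p = 0.0491). The adjusted p was under 0.05 in 7 of 20 alternatives, and the value depended on the scaling. It was 0.10 (adjusted p = 0.575) with library sizes only and -0.093 (adjusted p = 0.612) on the log2(TPM + 1) scale. The median of all genes in these settings was -0.31 and -0.41. Without resmetirom replicate 1 the value of Fn1 was 0.39 (adjusted p = 0.0911), and with the replicate number as a block 0.41 (adjusted p = 0.08604). The 9 hepatocyte markers in the table summed to 78600.0 to 88590.0 CPM in the control and 100200.0 to 107100.0 CPM in the resmetirom libraries. Those groups did not overlap either with TMM scaling, but with library sizes only they did, at 88410.0 to 95680.0 and 83980.0 to 105800.0 CPM. The median log2 fold change of these markers was 0.33 with TMM and 0.020 with library sizes only, and their part in the Fn1 result was not tested.

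Lum (lumican) and Dcn (decorin), small leucine-rich proteoglycans that bind collagen fibrils, lie 46984 bases apart on chromosome 10. Lum was at 11.6, 17.8, 28.9 and 28.3 CPM in the control and at 35.8, 18.3, 24.4 and 17.3 CPM in the resmetirom libraries. Dcn was at 263, 284, 424 and 401 CPM in the control and at 510.4, 301, 321 and 289.7 CPM in the resmetirom libraries. For both, resmetirom replicate 1 was highest, control replicates 3 and 4 came next, and the groups overlapped. The log2 fold changes were 0.15 (SE 0.34, edgeR adjusted p = 0.882) and 0.052 (SE 0.22, edgeR adjusted p = 0.944), and they were -0.11 and -0.17 without replicate 1 and -0.14 and -0.23 with library sizes only. Bgn (biglycan, a related proteoglycan), Postn (periostin) and Fbn1 (fibrillin 1, a microfibril protein) had -0.072, 0.0039 and 0.22, with adjusted p of 0.933, 0.995 and 0.812. On the TPM scale, which corrects for length, Dcn was the most abundant member at 367 ± 102 in the control libraries. Fn1 at 122 ± 13.5 and Ecm1 at 122 ± 6.99 TPM did not differ beyond their spread, and Bgn followed at 89.9 ± 23.2 TPM. The lowest were Lox at 0.329 ± 0.112 and Tgfb2 at 0.312 ± 0.143 TPM, also within each other's spread (SD, n = 4 each).

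Lysyl oxidases crosslink collagen and elastin. Loxl2 (ENSMUSG00000034205, chromosome 14, 69609068 to 69695834) was at 4.61, 4.11, 5.09 and 5.93 CPM in the control and at 4.17, 2.92, 2.996 and 1.49 CPM in the resmetirom libraries. Lox was at 0.699, 0.484, 0.954 and 0.989 CPM in the control and at 0.564, 0.195, 0.1998 and 0.407 CPM in the resmetirom libraries, from 3 to 21 counts per library. For both, resmetirom replicates 2 to 4 lay below all control libraries and replicate 1 did not. The log2 fold changes were -0.76 (SE 0.28, edgeR adjusted p = 0.173) and -1.16 (SE 0.50, edgeR adjusted p = 0.247). Loxl1 had -0.076 (SE 0.42, edgeR adjusted p = 0.959) with all libraries and -0.74 (adjusted p = 0.256) without resmetirom replicate 1, its highest library.

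Proteases degrade and remodel matrix, and TIMP proteins inhibit them. Mmp13 (ENSMUSG00000050578, chromosome 9, 7272514 to 7283331), the main interstitial collagenase of the mouse, was at 1.07, 1.06, 2.499 and 1.78 CPM in the control and at 0.789, 0.325, 0.533 and 0.6098 CPM in the resmetirom libraries. Every resmetirom library lay below every control library, from 5 to 55 counts per library. The means were 1.604 ± 0.685 and 0.564 ± 0.192 CPM (SD, n = 4 each), and the log2 fold change was -1.49 (SE 0.43, edgeR adjusted p = 0.0801), the lowest of the tested members but not called. DESeq2 called it, at -1.495 (adjusted p = 0.0303).

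Mmp2, a gelatinase of mesenchymal cells, was at 2.05, 3.53, 6.73 and 6.48 CPM in the control and at 7.95, 2.14, 3.13 and 3.52 CPM in the resmetirom libraries, with a fold change of -0.16 (SE 0.47, edgeR adjusted p = 0.918) in log2. Timp2 was at 13.6, 21.3, 31.9 and 32.9 CPM in the control and at 54.5, 22.5, 22.04 and 19.8 CPM in the resmetirom libraries. Resmetirom replicate 1 was the highest library for both. The log2 fold change of Timp2 was 0.26 (SE 0.42, edgeR adjusted p = 0.8297) with it and -0.22 (adjusted p = 0.746) without it. Mmp14, the membrane-bound activator of Mmp2, had 0.31 (SE 0.12, edgeR adjusted p = 0.193), which was -0.078 on the log2(TPM + 1) scale. Timp1, an inhibitor induced in activated stellate cells, had 53 counts over all libraries and did not pass the filter on low counts. Its counts were 8, 10, 7 and 7 in the control and 13, 5, 3 and 0 in the resmetirom libraries, and the 0 allows for up to 3 counts. In CPM this was 0.373, 0.484, 0.318 and 0.346 and 0.733, 0.325, 0.1998 and 0, with overlapping groups.

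Ligands and matricellular proteins carry the fibrogenic signal between cells. Tgfb1, the principal fibrogenic cytokine, was at 10.5, 8.08, 9.91 and 9.59 CPM in the control and at 11.8, 5.196, 7.86 and 6.51 CPM in the resmetirom libraries. Resmetirom replicates 2 to 4 lay below the control range and replicate 1 above it. The log2 fold change was -0.28 (SE 0.23, edgeR adjusted p = 0.608) with all libraries and -0.55 (adjusted p = 0.148) without replicate 1. Ccn2, connective tissue growth factor, was at 7.64, 11.8, 18.7 and 5.19 CPM in the control and at 16.1, 8.897, 11.2 and 10.7 CPM in the resmetirom libraries. Its lowest and its highest library were both controls, and it had 0.11 (SE 0.37, edgeR adjusted p = 0.926). Thbs1, thrombospondin 1, which can activate latent TGF-beta, was at 3.12, 1.16, 2.54 and 1.68 CPM in the control and at 1.92, 0.844, 12.7 and 3.998 CPM in the resmetirom libraries. Resmetirom replicate 3 held its highest level, and the log2 fold change was 1.18 (SE 0.76, edgeR adjusted p = 0.508) with that library and 0.074 (adjusted p = 0.968) without it. Tgfb2, another ligand of the family, had -0.38 (SE 0.59, edgeR adjusted p = 0.814) from 111 counts in all.

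Contractile genes are induced in activated stellate cells and are also expressed in vascular smooth muscle. Acta2, smooth muscle alpha-actin and the classical marker of activation, was at 4.33, 4.35, 3.77 and 2.03 CPM in the control and at 3.61, 2.47, 2.46 and 4.07 CPM in the resmetirom libraries. Tagln, transgelin, was at 8.24, 7.499, 8.32 and 4.01 CPM in the control and at 5.41, 3.96, 10.6 and 6.91 CPM in the resmetirom libraries. Control replicate 4 had the lowest Acta2 level of all 8 libraries, and the groups overlapped for both genes. The log2 fold changes were -0.20 (SE 0.29, edgeR adjusted p = 0.7995) and -0.066 (SE 0.31, edgeR adjusted p = 0.949). Exons of Tagln overlap exons of Pcsk7 on the opposite strand, and the sources used here do not give the strand handling. The 8 smooth muscle markers summed to 44.8 to 57.7 CPM in the control and 45.7 to 56.7 CPM in the resmetirom libraries.

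None of the 8 quiescent stellate markers was called by edgeR, DESeq2 or limma-voom, and 0 of 8 had an unadjusted edgeR p under 0.05. On the TPM scales 2 of the 8 were called lower, Des at -0.54 (adjusted p = 0.0295) and Ecm1 at -0.71 (adjusted p = 0.0234) with log2(TPM + 1), a scale that called 38.0% of all genes lower. The authors' deposited table lists Ecm1, Des and Lrat as lower, beside 32.4% of all genes with counts. The median log2 fold change of the 8 by edgeR was -0.075, and all 8 were detected in every library. Lrat, which esterifies retinol for storage, was at 9.83, 32.9, 23.6 and 15.9 CPM in the control and at 19.7, 17.5, 13.3 and 11.8 CPM in the resmetirom libraries. The control libraries enclosed all resmetirom values, and the log2 fold change was -0.40 (SE 0.35, edgeR adjusted p = 0.646). Reln, reelin, was at 34.4, 35.1, 49.8 and 48.6 CPM in the control and at 52.98, 33.9, 41.2 and 38.2 CPM in the resmetirom libraries, with -0.014 (SE 0.16, edgeR adjusted p = 0.982). Des, the intermediate filament desmin, was at 6.19, 7.06, 6.18 and 5.49 CPM in the control and at 5.64, 6.11, 5.33 and 4.34 CPM in the resmetirom libraries, with -0.22 (SE 0.18, edgeR adjusted p = 0.606). For both, the groups overlapped. Hand2, a transcription factor of stellate cells, was at 4.98, 6.58, 7.54 and 5.74 CPM in the control and at 10.9, 7.14, 8.19 and 6.57 CPM in the resmetirom libraries. Resmetirom replicates 1 and 3 lay above the control range and replicates 2 and 4 inside it, with 0.40 (SE 0.20, edgeR adjusted p = 0.3398), or -0.088 on the log2(TPM + 1) scale. Ngfr, the low-affinity neurotrophin receptor, was at 3.12, 1.597, 3.45 and 3.51 CPM in the control and at 4.51, 2.66, 1.73 and 2.304 CPM in the resmetirom libraries, with -0.052 (SE 0.34, edgeR adjusted p = 0.964). Resmetirom replicate 1 was its highest library. Colec11 (a collectin), Ecm1 (a secreted matrix protein) and Cygb (cytoglobin, a haem protein of stellate cells) had 0.043, -0.10 and -0.097.

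PDGF receptors mark mesenchymal cells and receive the mitogenic signal of PDGF. Pdgfrb was at 6.10, 8.37, 10.1 and 11.4 CPM in the control and at 14.8, 4.55, 9.39 and 4.95 CPM in the resmetirom libraries. Pdgfra was at 7.31, 9.58, 13.8 and 15.8 CPM in the control and at 17.3, 10.1, 11.99 and 8.06 CPM in the resmetirom libraries. Resmetirom replicate 1 was the highest library for both, and the log2 fold changes were -0.090 (SE 0.37, edgeR adjusted p = 0.942) and 0.036 (SE 0.28, edgeR adjusted p = 0.969). Without it they were -0.52 (adjusted p = 0.381) and -0.21 (adjusted p = 0.733).

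Matrix and activation genes were then set against the quiescent markers within each library, where the scaling of the library cancels. The mean log2 CPM of the 29 tested matrix and activation genes, relative to its mean over all 8 libraries, was -0.15, -0.046, 0.47 and 0.30 in control replicates 1 to 4 and 0.41, -0.57, -0.067 and -0.34 in resmetirom replicates 1 to 4. That of the 8 quiescent markers was -0.22, 0.034, 0.24 and 0.052 in the control and 0.40, -0.100, -0.16 and -0.25 in the resmetirom libraries. Resmetirom replicate 1 and control replicate 3 were the highest libraries on both measures. The matrix mean minus the quiescent mean was 0.065, -0.080, 0.23 and 0.25 in the control and 0.0076, -0.47, 0.095 and -0.092 in the resmetirom libraries. Its group means were 0.12 ± 0.15 and -0.12 ± 0.25 (SD, n = 4 each), and the groups overlapped. As a score over chosen members it was given no test. The difference between the groups, -0.23 (resmetirom minus control), was -0.016 on the log2(TPM + 1) scale and 0.24 with summed counts. In the sum Fn1 weighs most, with means of 496 and 658 CPM in control and resmetirom. Bgn, the next highest matrix gene, had 116 and 110 CPM. The mean contrast without Ecm1, Colec11 and Fn1 gave -0.25.

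Gene by gene, 4 of the 29 matrix and activation genes had a ratio to the quiescent mean that was below all control libraries in every resmetirom library, beside 2.73% of all genes tested. The log2 ratio of Col3a1 was 0.96, 0.50, 0.98 and 1.25 in the control and 0.053, -0.56, 0.19 and -0.082 in the resmetirom libraries, a difference of -1.03. That of Col1a1 was -0.80, -0.79, -0.10 and -0.19 in the control and -0.90, -1.98, -1.28 and -2.02 in the resmetirom libraries, a difference of -1.07. Resmetirom replicate 1, inside the control range of Col1a1 in CPM, was thus below it in the ratio. Mmp13 and Loxl2, the others of the 4, differed by -1.26 and -0.77. The same 4 genes were separated without Ecm1 and Colec11 in the reference (beside 2.5% of all genes). With any 1 library left out, 4 to 6 genes were separated. These held the same 4 by construction, since leaving out a library cannot undo a separation. Ratios on the log2(TPM + 1) scale separated Col1a1 alone, and log2(TPM + 0.1) ratios Col1a1 and Mmp13. 0 of 29 had a ratio above all control libraries in every resmetirom library, and 21 of 29 had a mean difference below 0. Dcn, Postn, Bgn and Lum differed by 0.096, 0.046, -0.061 and 0.23, with overlapping groups. Hand2, itself in the reference, was the 1 member with a ratio above all control libraries in every resmetirom library, by 0.44, beside 2.57% of all genes. The ratio was chosen after the levels had been seen and is a description.

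**Figure D4:**
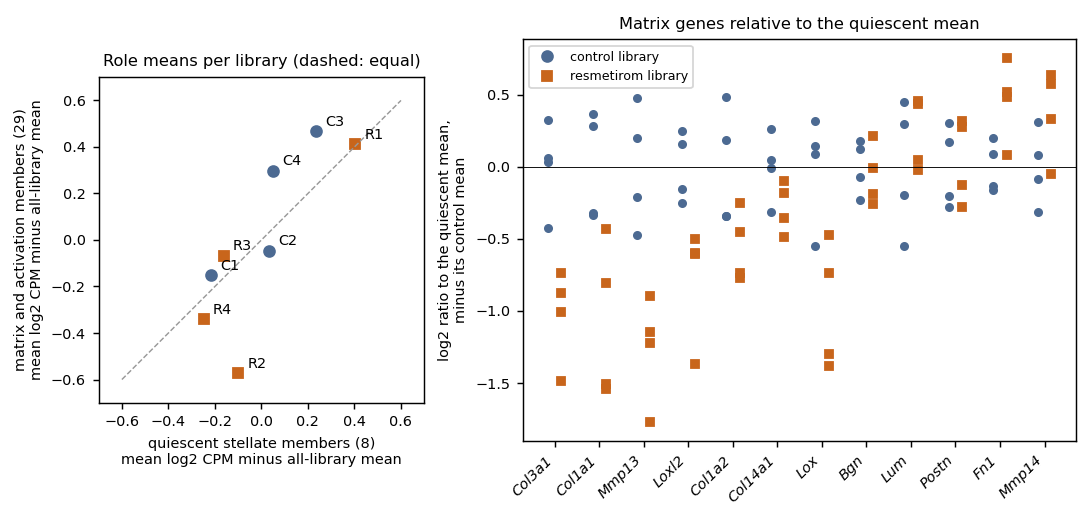
Left, mean of 29 matrix and activation genes (vertical) against mean of 8 quiescent markers (horizontal) in each library, as log2 CPM relative to the mean of all libraries, with a line of equality; right, log2 ratio of 12 matrix genes to the quiescent mean in each library, minus the control mean. Resmetirom replicate 1 sits at 0.40 and 0.41 on the left, and on the right Col3a1, Col1a1, Mmp13 and Loxl2 lie below all control libraries in each resmetirom library.

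Further genes of these pathways were read from 5 lists, of which 123 genes are reported here and 110 were tested. Over these genes 1 rose and 4 fell, beside 2.6% and 1.99% of all genes tested. Without resmetirom replicate 1, 10 fell, beside 1.93% of all genes, and with any other library left out 4 or 5 fell. Of the 25 tested genes of TGF-beta signalling reported here edgeR called none (median log2 fold change -0.077), with 3 at an unadjusted p under 0.05 and 0 called by DESeq2. The smallest p of these was that of Eng, which encodes endoglin, a co-receptor for TGF-beta that endothelial cells express, at 61.7, 49.3, 59.2 and 50.1 CPM in the control and at 57.9, 36.6, 35.96 and 34.5 CPM in the resmetirom libraries. Resmetirom replicates 2 to 4 lay below all control libraries and replicate 1 lay inside the control range. The log2 fold change was -0.42 (SE 0.16, edgeR adjusted p = 0.204) with all libraries and -0.63 (adjusted p = 0.00805) without replicate 1. With any other library left out the edgeR adjusted p was 0.223 to 0.439.

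Among 21 tested genes of PDGF and other stellate growth signals 0 rose and 3 fell (median -0.19). Nox4, an NADPH oxidase that makes hydrogen peroxide, was at 35.99, 33.6, 47.2 and 47.8 CPM in the control and at 2.48, 4.68, 6.46 and 1.42 CPM in the resmetirom libraries, and fell by 3.46 in log2 units (SE 0.40, edgeR adjusted p = 0.00207). Wwtr1, which encodes TAZ, a co-activator of TEAD factors, was at 25.8, 31.8, 31.5 and 28.5 CPM in the control and at 19.5, 15.7, 14.98 and 14.9 CPM in the resmetirom libraries, and fell by 0.85 in log2 units (SE 0.12, edgeR adjusted p = 0.00173). Il13ra1, a chain of the receptor for interleukin 13, was at 41.5, 60.9, 46.3 and 45.2 CPM in the control and at 27.3, 30.0, 34.6 and 20.9 CPM in the resmetirom libraries, and fell by 0.78 in log2 units (SE 0.16, edgeR adjusted p = 0.0157). In all 3 the groups did not overlap, and each was called in all 20 alternative analyses. The list is of a pathway and not of a cell type, and which liver cells these reads came from was not tested. Without resmetirom replicate 1, 5 genes of this list were called lower, with Gas6 and Pdgfb added.

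Among 14 tested matrix proteases and inhibitors 0 rose and 1 fell (median -0.19). Mmp15, a membrane-type metalloproteinase, was at 22.8, 21.6, 19.5 and 25.2 CPM in the control and at 9.41, 15.1, 10.9 and 7.39 CPM in the resmetirom libraries, and fell by 1.06 in log2 units (SE 0.19, edgeR adjusted p = 0.00682), with no overlap. Without resmetirom replicate 1, Mmp12 was called lower as well. Among 23 tested genes of collagen processing 1 rose and 0 fell (median -0.17). Bmp1, the protease that trims procollagen, was at 50.2, 54.2, 43.4 and 49.1 CPM in the control and at 59.6, 76.4, 69.1 and 63.2 CPM in the resmetirom libraries. It rose, with a log2 fold change of 0.45 (SE 0.11, edgeR adjusted p = 0.0331). However, it had 0.13 (adjusted p = 0.398) with library sizes only and -0.057 (adjusted p = 0.732) on the log2(TPM + 1) scale. The median of all genes in these settings was -0.31 and -0.41. The adjusted p of Bmp1 was 0.0618 with the replicate number as a block. Among 27 tested genes of a list of other matrix genes edgeR called none (median -0.15), with 3 at an unadjusted p under 0.05 and 1 called by DESeq2. The smallest p was that of Sparc, a collagen-binding glycoprotein, at 71.4, 62.6, 77.7 and 74.7 CPM in the control and at 67.9, 38.2, 51.7 and 40.1 CPM in the resmetirom libraries. Its log2 fold change was -0.53 (SE 0.17, edgeR adjusted p = 0.113), or -0.73 (adjusted p = 0.00757) without resmetirom replicate 1, when Hspg2 was called lower too. With any other library left out the edgeR adjusted p of Sparc was 0.124 to 0.269.

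**Figure D5:**
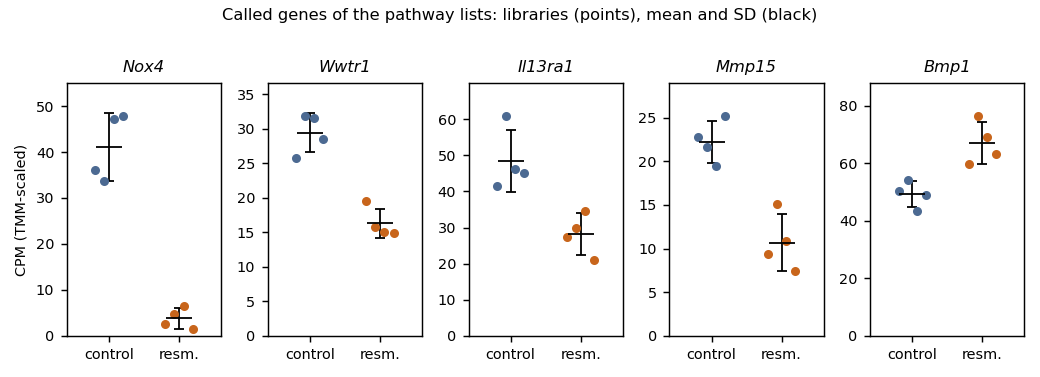
Levels of 5 called genes of the pathway lists in each library (vertical axes, TMM-scaled CPM from 0), with mean and SD. The groups do not overlap for any of the 5, with Bmp1 higher (its difference turns below 0 on the TPM scales) and Nox4, Wwtr1, Il13ra1 and Mmp15 lower in the resmetirom libraries.

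Markers of the cell types that share the tissue were read in the same way, and edgeR called none in 8 of 10 lists with all libraries and in 6 of 10 without resmetirom replicate 1. The fit without that library called 1.93% of all genes lower. Of 15 tested further stellate markers 2 had an unadjusted p under 0.05 and DESeq2 called 0 (median -0.0015). Their sum was 334 to 379 CPM in the control and 295 to 672 CPM in the resmetirom libraries. The top of that range was resmetirom replicate 3, where Steap4, a metalloreductase, was at 438 CPM, against 61.2 to 144 CPM elsewhere. Sinusoidal endothelial markers summed to 309.8 to 434 and 274 to 387 CPM, and Kupffer cell markers to 639.8 to 933 and 401 to 1065 CPM in control and resmetirom, with both upper resmetirom values from replicate 1. Without that library Pecam1, an endothelial adhesion molecule, was called lower. Markers of monocytes and scar macrophages summed to 237 to 367 and 123 to 279 CPM, with a median log2 fold change of -0.45, 3 of 10 at an unadjusted p under 0.05 and 1 called by DESeq2. In resmetirom replicates 2 to 4 they summed to 123 to 231 CPM, below all control libraries, and in replicate 1 to 279 CPM, inside the control range. Gpnmb, a glycoprotein of macrophages, had the smallest p of this list, with a log2 fold change of -1.86 (SE 0.50, edgeR adjusted p = 0.0857) and, without replicate 1, -2.31 (adjusted p = 0.0445). With another library left out its edgeR adjusted p reached up to 0.233. Over the lists of endothelium, Kupffer cells, smooth muscle, portal fibroblasts, cholangiocytes and lymphocytes, 2, 0, 0, 2, 1 and 1 genes had an unadjusted p under 0.05 and DESeq2 called 0. Of the adipocyte markers, Adipoq, Lep and Retn had 0 counts in every library, and Fabp4, which other liver cells also express, fell by 0.996 in log2 units (SE 0.17, edgeR adjusted p = 0.00413). Of 9 hepatocyte markers 2 rose and 1 fell, beside 2.6% and 1.99% of all genes tested. Ahsg and Cps1, which encode fetuin-A and the first enzyme of the urea cycle, had log2 fold changes of 0.61 (SE 0.10, edgeR adjusted p = 0.00444) and 0.76 (SE 0.15, edgeR adjusted p = 0.00988). Both lost the call when counts were scaled by library size alone, at 0.31 (adjusted p = 0.1002) and 0.47 (adjusted p = 0.0836), and as log2(TPM + 1), at 0.11 (adjusted p = 0.622) and 0.26 (adjusted p = 0.318). Serpina1e, one of several near-identical antitrypsin genes whose reads may be shared, had a log2 fold change of -2.87 (SE 0.56, edgeR adjusted p = 0.0396) and was not called without resmetirom replicate 1 (adjusted p = 0.101), with the replicate block (adjusted p = 0.188) or with most other libraries left out. The part of these cells in the members' results was not tested.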

How the data were processed

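Per the submitters' processing notes, the tools were HISAT2 2.1.0, StringTie 1.3.1 and RSEM, together with fastp 0.18.0, edgeR, DESeq2 and Bowtie2 2.2.8, on build mm10, with no role given. The authors deposited whole-number counts per gene and library and TPM values, per the file headers. The authors also deposited a log2 fold change, which equals the ratio of group means of TPM with 0 replaced by 0.001, and a p-value with its adjusted value for each gene. The sources used here do not say how strand and shared reads were handled.

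From the counts, genes were filtered with filterByExpr, scaled by TMM and tested with edgeR 4.0.16 (robust quasi-likelihood, R 4.3.3) in 4 control against 4 resmetirom libraries, with Benjamini-Hochberg adjustment over all genes at 0.05. Groups came from the titles. Alternatives were DESeq2 1.42.0, limma 3.58.1 on counts (voom) and on log2 TPM with pseudocounts of 1 and 0.1, other scalings and filters, a replicate block and each library left out. Levels are TMM-scaled CPM, and log2 levels used a prior count of 2. On simulated counts the test recovered 18% of 1.5-fold, 70% of 2-fold and 94% of 4-fold changes, with 7 false calls among 147. The simulation changed only genes with a mean of at least 1 CPM. It drew genes independently, so it had no shift shared by many genes of a library. No libraries of a group agreed within sampling noise (lowest chi-square per degree of freedom 13.2).

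Members and lists were chosen with earlier results of these data known. Values in every library are given for called members, for the member with the smallest p in each role and for a panel of well-known genes, and outside the set for up to 4 called genes of each pathway list, or the one with the smallest p. Marker lists share Fbln2 and Spp1 with pathway lists. An item of the pathway lists is not reported here and is left out of their counts.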

Additional observations from a re-analysis of the deposited data

Results flagged for a closer look

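For 6 members, resmetirom replicate 1 lay far above the other 3 libraries of its group (Dixon's ratio above its critical value for 4 samples). Col6a1 was at 22.04 CPM in it and at 7.66 to 9.48 CPM in replicates 2 to 4, with a gap to the nearest library of 0.873 of the group's range. Col6a2 was at 10.8 CPM in it and at 3.59 to 4.33 CPM in replicates 2 to 4, with a gap to the nearest library of 0.897 of the group's range. Timp2 was at 54.5 CPM in it and at 19.8 to 22.5 CPM in replicates 2 to 4, with a gap to the nearest library of 0.923 of the group's range. Loxl1 was at 4.68 CPM in it and at 1.17 to 1.76 CPM in replicates 2 to 4, with a gap to the nearest library of 0.831 of the group's range. Dcn was at 510.4 CPM in it and at 289.7 to 321 CPM in replicates 2 to 4, with a gap to the nearest library of 0.857 of the group's range. Colec11 was at 54.2 CPM in it and at 33.3 to 34.7 CPM in replicates 2 to 4, with a gap to the nearest library of 0.931 of the group's range. Over the 84 groups of 4 that were checked, chance gives such a gap in about 1 in 20. None of the 6 had an adjusted p under 0.05 by edgeR with or without that library, and no explanation was tested.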

How the results depend on the processing

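With all libraries, 1 member was called higher and 1 lower. Members called higher were 0 with library sizes only, without robust estimation, with limma-voom, on both TPM scales and with the replicate block. Members called lower were 0 with upper-quartile factors and 0 without the low-count filter. They were 2 with DESeq2, beside 411 of 12207 genes, and 5 with library sizes only, beside 16.1% of all genes. On either TPM scale they were 11, beside 38.0% and 37.6% of all genes. Of the pathway lists, 1 reported gene was called higher and 4 lower. Higher calls were 0 with library sizes only, both TPM scales and the replicate block. Lower calls among the 110 tested were 8 with DESeq2 and 16 with library sizes only. They were 38 and 39 with log2(TPM + 1) and log2(TPM + 0.1), and the shares over all genes are those just given.

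Leaving out 1 library at a time gave 0 to 1 members higher, 0 to 2 lower, 0 to 2 pathway genes higher and 4 to 10 lower. The ratio to the quiescent mean separated 1 and 2 genes with the TPM scales. With 1 library left out it separated 4 to 6, a count that cannot fall below the 4 of all libraries. The difference in matrix minus quiescent was -0.016 with log2(TPM + 1), 0.24 with summed counts and -0.30 to -0.11 with 1 library left out.

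Fold changes that turned sign were, with library sizes only, Timp2 -0.0016, Fbn1 -0.069, Lum -0.14, Ccn2 -0.17, Postn -0.30, Pdgfra -0.25, Dcn -0.23, Colec11 -0.24. With log2(TPM + 1) they were Timp2 -0.30, Fbn1 -0.094, Fn1 -0.093, Lum -0.31, Mmp14 -0.078, Ccn2 -0.24, Postn -0.53, Pdgfra -0.33, Dcn -0.46, Hand2 -0.088, Colec11 -0.49, Bmp1 -0.057. With log2(TPM + 0.1) they were Timp2 -0.33, Fbn1 -0.27, Fn1 -0.094, Lum -0.32, Mmp14 -0.084, Ccn2 -0.26, Postn -0.59, Pdgfra -0.44, Dcn -0.46, Hand2 -0.11, Colec11 -0.51, Bmp1 -0.059. All of these turned from above to below 0, and in these settings the median of all genes was -0.31, -0.41 and -0.50, in that order. Postn was -0.0045 without the filter, -0.00015 with limma-voom and -0.0054 with the block. With 1 library left out, the ranges that crossed 0 were Col6a1 -0.59 to 0.088, Tagln -0.37 to 0.12, Timp2 -0.22 to 0.42, Loxl1 -0.74 to 0.13, Fbn1 -0.088 to 0.38, Bgn -0.37 to 0.045, Lum -0.11 to 0.32, Mmp2 -0.68 to 0.068, Ccn2 -0.12 to 0.52, Postn -0.087 to 0.12, Reln -0.15 to 0.079, Pdgfrb -0.52 to 0.12, Pdgfra -0.21 to 0.22, Dcn -0.17 to 0.17, Ngfr -0.39 to 0.12, Colec11 -0.16 to 0.12, Cygb -0.38 to 0.045. The cause was not tested.

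Same-numbered control and resmetirom libraries had correlations of -0.33, 0.18, -0.19 and -0.061, and differently numbered ones -0.15 to 0.32. No pairing by number was seen, although a weak one could be missed. The replicate block gave 0 members higher and 1 lower. Over the whole table it gave 240 genes higher and 166 lower, against 317 and 243 without it. Depth limits Timp1, Lox, Tgfb2 and Mmp13, with 53, 88, 111 and 172 counts in all.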
